A study of Mus musculus with 6 samples.

Results

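The genes described here are the Wnt ligands, their Frizzled receptors and the proteins that carry the signal to beta-catenin, measured in ADC106, a mouse angiosarcoma line. They were chosen by symbol from the protein-coding genes of the mouse annotation. All symbols made of Wnt or Fzd and a number were taken, together with a fixed set of co-receptors, inhibitors, Dishevelled proteins, destruction complex parts and TCF/LEF factors, which gave 54 genes of the 55401 in the count table. Angiosarcoma is a malignant tumour of the cells that line vessels. One group of 3 libraries came from cells transfected with a negative control mimic (NC, genotype label WT) and the other group of 3 from cells transfected with a miR-497 mimic (genotype label miR-497 overexpression). A microRNA mimic is a short synthetic RNA duplex that loads Argonaute as the natural microRNA does. Both mimics were used at 12.5 nM, and RNA was extracted on day 3. The labels name ADC106 as the only line, and do not say whether the 3 libraries of a group came from separate transfections, so p-values measure the spread between these libraries, which may be technical. Untransfected cells were not analysed here.

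Wnt proteins are secreted lipid-modified ligands that bind a Frizzled receptor together with Lrp5 or Lrp6. Dishevelled proteins then gather at the receptor and hold back the destruction complex of Axin, Apc and the Gsk3 kinases, so that beta-catenin escapes degradation and joins TCF/LEF factors on its target genes. In endothelium, the Frizzled 4 and Lrp5 branch drives retinal vessel growth, and Wnt7 ligands from neural tissue act on brain vessels.

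Total counts per library ranged from 25777676 to 36159499. The labelled cell type was matched by its markers. The 4 defining endothelial genes Pecam1, Cdh5, Kdr and Tek averaged 307 to 3554 CPM (counts scaled to the library size, with TMM factors) in the NC libraries, and all 16 endothelial markers were above 1 CPM. Summed endothelial markers were 11500 to 12290 CPM with NC and 11260 to 11780 CPM with miR-497. The 10 fibroblast or mural markers summed to 347 to 369 CPM with NC and 524 to 621 CPM with miR-497, with Lum at 0 in all libraries and Dcn at most 0.159 CPM; 7 of the 10 averaged above 1 CPM. They did not move together: Col1a1, Col1a2, Acta2 and Tagln were higher, Col3a1 and Pdgfrb were lower, Pdgfra and Rgs5 were not called, and Col1a2 alone went from a mean of 129 to 286 CPM. Genes on the opposite strand cover 67.9% of the exon bases of Tagln, and their reads cannot be told apart if strand was not used in counting. Epithelial markers summed to at most 1.63 CPM, with none of the 6 above 1 CPM on average. Of the 6 immune markers, 1 was above 1 CPM, Itgam and Cd3e were at 0 in all libraries, and the sum was 8.35 to 8.75 CPM with NC and 15.1 to 20.02 CPM with miR-497. The part of these shifts in the results below was not tested. In bulk RNA, fewer cells of a type and less RNA per cell cannot be told apart.

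The microRNA and its matches in the members' 3' UTRs are shown first, since the seed is the only part of the study's design that can be read in the members' own sequence. The mature guide strand, from RefSeq on GRCm38.p6 (chr11:70234730-70234751, plus strand), is printed with its seed, bases 2 to 8, in capitals.
mmu-miR-497a-5p: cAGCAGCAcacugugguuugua
Sites were searched on the transcript strand as TGCTGCT (a 7mer-m8, or an 8mer when A follows) and GCTGCTA (7mer-A1) in the longest annotated 3' UTR of each gene. The shorter GCTGCT lies inside each of these and was not counted as a site. Of the 54 genes, 19 had a site, 4 of them an 8mer, and 13 of the 19 passed the filter on low counts. A site was present in 34.2% of the 38 members that passed the filter and in 28.1% of all tested genes with a 3' UTR. These shares are not adjusted for length, and the members' 3' UTRs were longer. Their median was 2947 bases with a site and 1287 without, beside 2296 and 883.5 for all tested genes. The sites of 3 members that were lower with the miR-497 mimic are shown with 11 bases on each side and the site in capitals (GRCm38).
Dvl1, chr4:155859235-155859263, plus strand: ttctgtgtaaaTGCTGCTtctgtgtaaat
Fzd5, chr1:64732758-64732786, minus strand: ttcccagaatcTGCTGCTccctccccacc
Znrf3, chr11:5277697-5277725, minus strand: caggagtagcaGCTGCTAagaacagcagc
Members that were higher had sites too, and the 2 shown here hold the same 7mer as Dvl1.
Dvl2, chr11:70012097-70012125, plus strand: actgccccaggTGCTGCTgggggttgtag
Gsk3b, chr16:38246038-38246066, plus strand: ggtcatgtgacTGCTGCTtcaataaagac
Fzd3 and Lrp6 had the most sites, 6 and 3, and did not pass the test described below. The 8mer of Fzd3, which lies at the end of a repeat of the triplet GCT that holds 4 more overlapping sites, and the first site of Lrp6 are given for comparison.
Fzd3, chr14:65197255-65197284, minus strand: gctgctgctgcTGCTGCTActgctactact
Lrp6, chr6:134450574-134450602, minus strand: aacagcagtttTGCTGCTtgtgccataaa
The sites of Dvl1, Dvl2 and Fzd5 were each in 1 of the 2 coding transcripts with a 3' UTR, and that of Znrf3 and that of Gsk3b each in 1 of 3. Which of these transcripts the cells make cannot be read from counts per gene.

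Of the 54 genes, 8 were higher and 8 lower with the miR-497 mimic, 22 were tested without passing the threshold, and 16 were removed by the filter on low counts (edgeR quasi-likelihood test, adjusted p under 0.05 by Benjamini-Hochberg over 14661 genes). The 16 called genes are 42.1% of the 38 tested, beside 49.8% of all genes tested (23.8% higher and 26% lower), so the share of changed genes was near the background of this experiment. The median log2 fold change of the 38 was -0.03, and that of all tested genes was -0.02. The groups did not overlap for 20 of the 38, beside 57.4% of all tested genes. Higher members were Dvl2, Dvl3, Fzd7, Fzd8, Ctnnb1, Gsk3b, Tcf7l1 and Tcf7l2, and lower members were Wnt7b, Fzd4, Fzd5, Lrp5, Znrf3, Sfrp2, Dvl1 and Axin1. The plot of fold changes by role places them side by side.

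**Figure D1:**
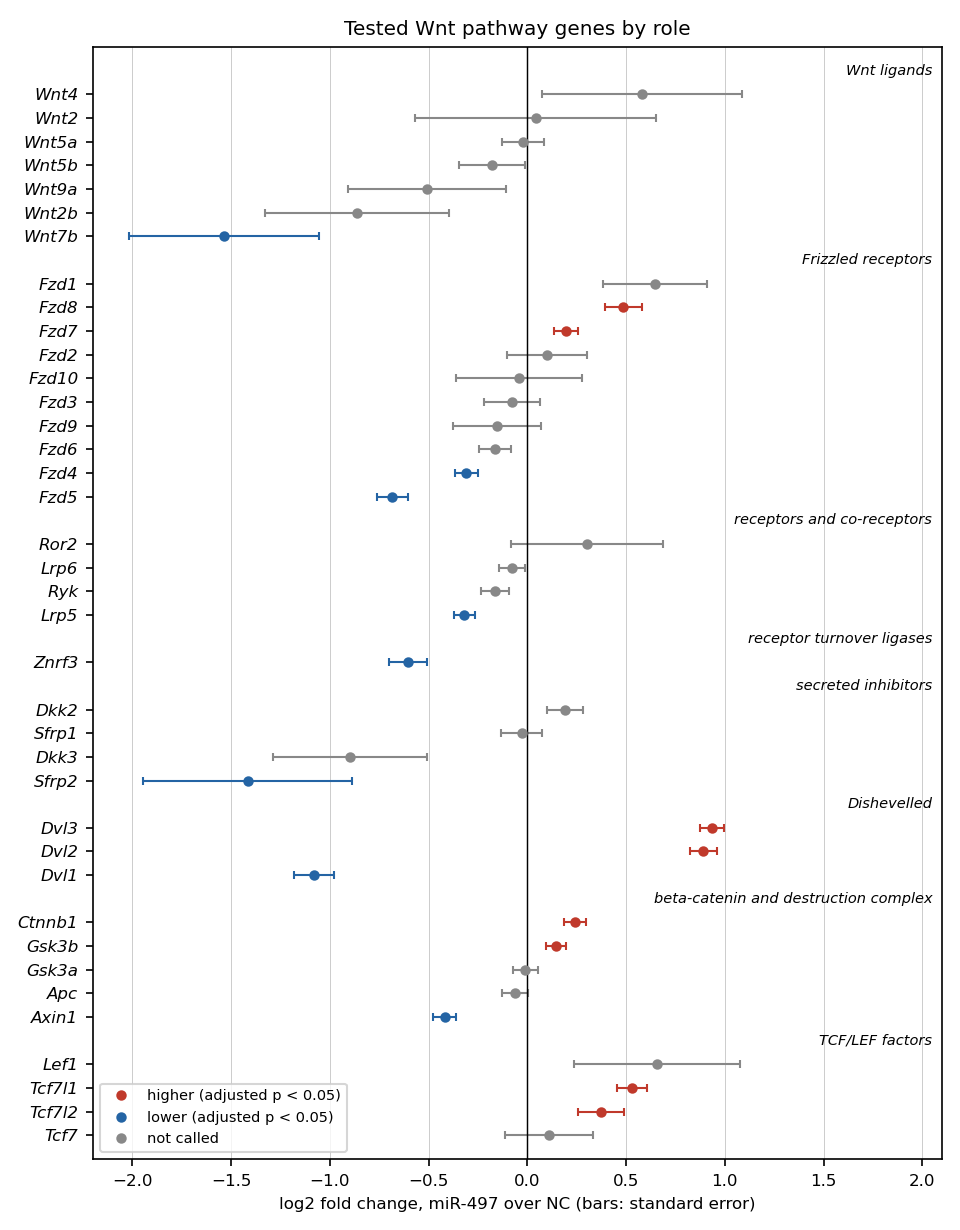
Log2 fold change (miR-497 over NC, 3 libraries each) of the 38 tested Wnt pathway genes on the x axis, grouped by role, with bars for the standard error from edgeR. Red genes were higher and blue genes lower at an adjusted p under 0.05; the Dishevelled genes lie farthest apart among those with short bars, with Dvl1 at -1.08 and Dvl3 at 0.94.

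Few Wnt ligands were present. Of the 19 ligand genes, 7 passed the filter and 1 of them, Wnt7b, was called (14.3%, beside 49.8% of all tested genes). Per kilobase of exon, Wnt5a and Wnt5b, which act mainly outside the beta-catenin branch, held most of the ligand level, with 40.3% ± 3.58 and 36.9% ± 3.68 of the family's sum in NC libraries (SD, n = 3). Wnt5a averaged 19.9 ± 2.16 CPM with NC and 19.6 ± 2.40 CPM with miR-497 (SD, n = 3), and Wnt5b averaged 6.20 ± 0.829 and 5.46 ± 0.587 CPM. Their log2 fold changes were -0.02 (SE 0.107 and adjusted p = 0.874 by edgeR) and -0.18 (SE 0.168 and adjusted p = 0.40 by edgeR), and neither passed the test. Summed over the family, the ligand level was 6.32 ± 0.208 CPM per kilobase with NC and 5.62 ± 0.479 with miR-497.

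Wnt7b (ENSMUSG00000022382, chr15:85535437-85582473, GRCm38), a ligand known for its action on brain vessels, had 43, 39 and 19 counts in the NC libraries and 12, 6 and 12 in the miR-497 libraries. These are 1.30, 1.07 and 0.675 CPM with NC and 0.478, 0.189 and 0.394 CPM with miR-497. All 3 miR-497 values lay below all 3 NC values. The log2 fold change was -1.54 (SE 0.481 and adjusted p = 0.0136 by edgeR). The call was lost without NC replicate 1 (-1.33, edgeR adjusted p = 0.0636) and without miR-497 replicate 2 (-1.22, edgeR adjusted p = 0.0697). Its 3' UTR held only the 6mer GCTGCT. Wnt2, Wnt2b, Wnt4 and Wnt9a were tested at group means of 0.469 to 1.204 CPM and gave log2 fold changes of -0.86 to 0.58 with standard errors of 0.402 to 0.611. None of the 4 passed the test.

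The other 12 ligands had at most 18 counts in any library and were not tested. Wnt3a was at 0 in all 6 libraries. Wnt1, Wnt10a, Wnt10b and Wnt8b had at most 3 counts in any library. Wnt3 had 24 counts over the NC libraries and 19 over the miR-497 libraries, and Wnt7a had 12 and 8. Wnt11 had 20 and 3, Wnt6 had 11 and 0, Wnt8a had 9 and 0, and Wnt16 had 8 and 0. Wnt9b went the other way, with 7 counts over the NC libraries and 32 over the miR-497 libraries. Without the filter none of these ligands passed the test (edgeR adjusted p = 0.062 for Wnt9b, 0.0816 for Wnt6 and larger for the others).

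All 10 Frizzled genes passed the filter, and 2 were higher and 2 lower (40% called, beside 49.8% of all tested genes). Frizzleds are the seven-pass receptors that bind Wnt through a cysteine-rich domain. Per kilobase of exon, Fzd7 was the most abundant in NC libraries with 16.5 ± 0.660 CPM per kilobase (SD, n = 3), followed by Fzd4 with 12.8 ± 0.657, Fzd6 with 9.79 ± 0.541 and Fzd5 with 8.84 ± 0.524. Fzd8 had 2.95 ± 0.0711, and Fzd1, Fzd2, Fzd3, Fzd9 and Fzd10 had 0.503 to 1.55 CPM per kilobase. The family's sum was 55.6 ± 2.53 CPM per kilobase with NC and 52.6 ± 3.10 with miR-497, a difference about the size of the spread between libraries.

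Fzd5 (ENSMUSG00000045005, chr1:64730558-64737751) had the largest called change of the family. It stood at 59.7, 58.4 and 65.2 CPM with NC and at 41.3, 38.5 and 34.5 CPM with miR-497. Each miR-497 library was below every NC library. It fell by 0.68 on the log2 scale (SE 0.0772 and adjusted p = 1.41e-06 by edgeR). A gene on the opposite strand, Gm38058, covers 17.8% of its exon bases and had at most 4 counts in any library. Its site is the 7mer-m8 printed above, in a 3' UTR of 4285 bases.

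Fzd4, the receptor of Norrin in retinal vessels, fell by 0.31 (SE 0.0599 and adjusted p = 0.000372 by edgeR), from 85.8 ± 4.42 to 69.2 ± 1.40 CPM (SD, n = 3). Fzd8 rose from 17.6 ± 0.425 to 24.7 ± 2.78 CPM, by 0.49 (SE 0.0940 and adjusted p = 0.000353 by edgeR), with 2 sites in its 3' UTR. Fzd7 rose from 74.8 ± 2.99 to 85.8 ± 3.68 CPM, by 0.20 (SE 0.0599 and adjusted p = 0.0114 by edgeR), and this call was lost without NC replicate 1 (0.15, edgeR adjusted p = 0.077). In the make-up of the family, Fzd7 went from 29.7% ± 0.710 to 36.0% ± 0.617 of the Frizzled level per kilobase, Fzd5 from 15.9% ± 0.490 to 10.5% ± 0.509 and Fzd8 from 5.31% ± 0.304 to 7.85% ± 0.490 (SD, n = 3). The other 6 Frizzled genes did not pass the test, with log2 fold changes of -0.16 (Fzd6) to 0.65 (Fzd1, edgeR adjusted p = 0.0523). Fzd3, with 6 sites, had a log2 fold change of -0.08 (SE 0.142).

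Among the co-receptors, Lrp5 was lower. Lrp5 and Lrp6 are the single-pass partners whose phosphorylated tails bind Axin. Lrp5 fell from 288 ± 13.3 to 231 ± 4.403 CPM (SD, n = 3), by 0.32 on the log2 scale (SE 0.0525 and adjusted p = 7.45e-05 by edgeR). Lrp6, with 165 ± 11.3 CPM under NC and 156 ± 13.4 CPM under miR-497, did not pass (-0.08, SE 0.0657, edgeR adjusted p = 0.359), although its 3' UTR holds 3 sites. The kinase-like receptor Ryk had a log2 fold change of -0.16 (SE 0.0696 and adjusted p = 0.0598 by edgeR). Of the Wnt5a receptors, Ror2 was near 1 CPM (0.916 ± 0.247 with NC and 1.13 ± 0.221 with miR-497) and did not pass, and Ror1 was not tested, with 15 counts over the NC and 8 over the miR-497 libraries.

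Znrf3 and Rnf43 are ubiquitin ligases that remove Frizzleds from the cell surface, and are themselves widely used beta-catenin target genes. Znrf3 (ENSMUSG00000041961, chr11:5276324-5444847) had 20.7, 18.2 and 19.96 CPM with NC and 12.3, 13.5 and 12.8 CPM with miR-497. The groups did not overlap. It fell by 0.61 on the log2 scale (SE 0.0959 and adjusted p = 5.23e-05 by edgeR). Rnf43 was not tested, with 12 counts over the NC and 1 over the miR-497 libraries.

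Of the 5 secreted inhibitors, Sfrp2 was lower, 3 did not pass and Dkk1 was not tested (25% of the 4 tested were called, beside 49.8% of all tested genes). Sfrp proteins bind Wnts outside the cell, and Dkk1 blocks Lrp5 and Lrp6. Sfrp2 (ENSMUSG00000027996, chr3:83766321-83774316) had 81, 63 and 61 counts with NC and 29, 37 and 2 with miR-497, or 2.44, 1.73 and 2.17 CPM and 1.15, 1.17 and 0.0656 CPM. The third miR-497 library lies far below the other two. The log2 fold change was -1.42 (SE 0.530 and adjusted p = 0.0351 by edgeR). It was not called by the DESeq2 Wald test (-1.40, adjusted p = 0.227), nor without miR-497 replicate 3 (-0.86, edgeR adjusted p = 0.0557) or NC replicate 1 (-1.31, edgeR adjusted p = 0.0825), and limma voom gave -2.15 (adjusted p = 0.00902). Gm26771, which covers 16.1% of its exon bases from the opposite strand, was at 0 in all libraries. Dkk2 and Sfrp1, the most abundant of the 5, averaged 26.8 and 15.5 CPM with NC and had log2 fold changes of 0.19 (SE 0.0905) and -0.03 (SE 0.102). Dkk3, with one 7mer-m8 site, had -0.90 (SE 0.390 and adjusted p = 0.0662 by edgeR), and Dkk1 had 11 counts over the NC libraries and 0 over the miR-497 libraries.

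**Figure D2:**
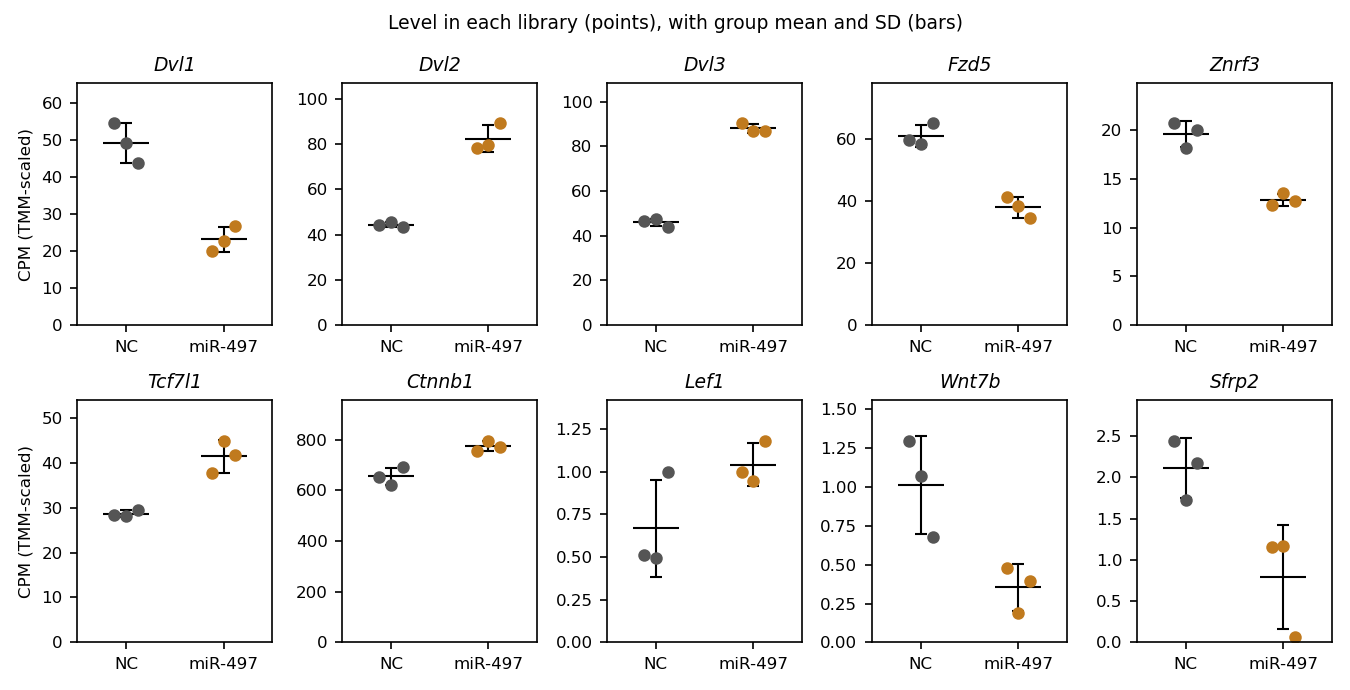
TMM-scaled CPM (y axis, from 0) in each library (points) for 10 members in the NC and miR-497 groups, with the group mean and SD (n = 3) as bars. Dvl1, Fzd5, Znrf3, Wnt7b and Sfrp2 are lower and Dvl2, Dvl3, Tcf7l1 and Ctnnb1 higher with miR-497, without overlap; the Lef1 groups overlap.

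All 3 Dishevelled genes were called, beside 49.8% of all tested genes, and not in the same direction. Dishevelled proteins are the shared cytoplasmic adaptors of the beta-catenin and the planar polarity branches. Dvl1 (ENSMUSG00000029071, chr4:155847402-155859303) had 54.6, 49.3 and 43.9 CPM with NC and 20.2, 22.7 and 26.8 CPM with miR-497. Its log2 fold change was -1.08 (SE 0.1001 and adjusted p = 1.38e-07 by edgeR), so it was 2.12-fold lower. Every miR-497 value was well under the lowest NC value.

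Dvl2 (ENSMUSG00000020888, chr11:70000595-70012301) had 44.3, 45.6 and 43.4 CPM with NC and 78.3, 79.8 and 89.2 CPM with miR-497, and rose by 0.89 on the log2 scale (SE 0.0671 and adjusted p = 1.19e-08 by edgeR). Acadvl, on the opposite strand, covers 18.3% of the exon bases of Dvl2; it averaged 52.5 CPM with NC and 61.3 CPM with miR-497, a log2 change of 0.22, and reads of the pair cannot be told apart if strand was not used in counting. Dvl3 (ENSMUSG00000003233, chr16:20516982-20534010), which no opposite-strand exon overlaps, had 46.4, 47.5 and 44.0 CPM with NC and 90.3, 87.0 and 86.9 CPM with miR-497. It rose by 0.94 (SE 0.0612 and adjusted p = 2.26e-09 by edgeR). In each gene the groups were far apart compared with their spread.

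As a share of the Dishevelled level per kilobase of exon, Dvl1 took 43.3%, 40.3% and 38.98% in the NC libraries and 13.2%, 14.8% and 16.2% in the miR-497 libraries. By this measure Dvl1 was the most abundant of the family in every NC library and the least abundant in every miR-497 library. Its rank under NC depends on the length used, which covers all annotated exons and not the transcripts the cells make. In CPM, NC replicate 3 had 43.9 for Dvl1, 43.4 for Dvl2 and 44.0 for Dvl3. Dvl2 went from 29.3% ± 1.33 to 41.5% ± 1.11 and Dvl3 from 29.8% ± 0.929 to 43.7% ± 2.59 (SD, n = 3). The summed level was 24.1 ± 1.38 CPM per kilobase with NC and 31.5 ± 1.39 with miR-497. Dvl1 and Dvl2 each had 1 site, both 7mer-m8, in 3' UTRs of 937 and 2610 bases, and Dvl3 had none in 1695 bases.

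**Figure D3:**
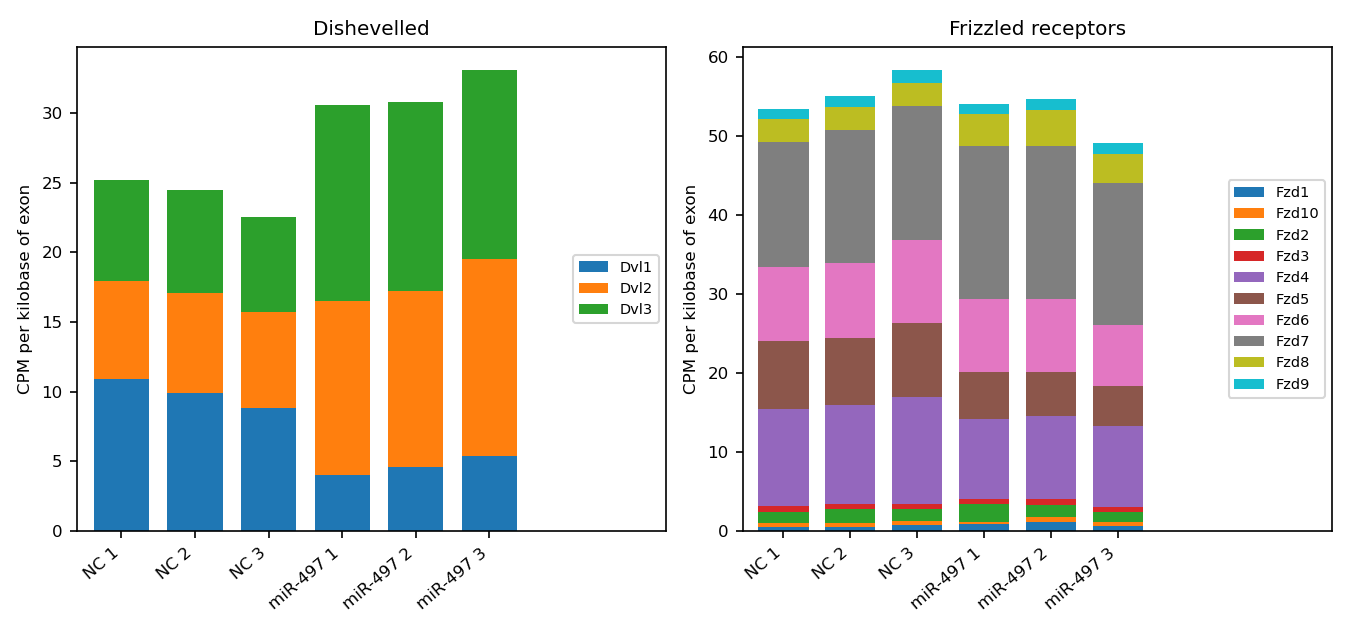
Stacked levels (y axis, CPM per kilobase of exon, from 0) of the 3 Dishevelled genes and the 10 Frizzled genes in each library (x axis). The Dvl1 part shrinks from 40.9% to 14.7% of the Dishevelled sum on average, while the Frizzled sum stays near 55.6 (NC) and 52.6 (miR-497) CPM per kilobase.

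Ctnnb1, the gene of beta-catenin, was the most abundant member, with 126 ± 6.63 CPM per kilobase in NC libraries (SD, n = 3), and it was slightly higher with miR-497. Ctnnb1 (ENSMUSG00000006932, chr9:120929216-120960507) had 651, 623 and 691 CPM with NC and 757, 796 and 773 CPM with miR-497. The groups did not overlap, and it rose by 0.24 on the log2 scale (SE 0.0561 and adjusted p = 0.00164 by edgeR). Ulk4 covers 14.6% of its exon bases from the opposite strand and averaged 3.85 and 2.80 CPM. Since beta-catenin is controlled mainly by protein degradation, the level of the protein is not measured by these counts.

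Within the destruction complex, the scaffold Axin1 fell from 88.0 ± 2.28 to 65.8 ± 1.67 CPM (SD, n = 3), by 0.42 (SE 0.0575 and adjusted p = 1.21e-05 by edgeR), with no site in its 3' UTR. The kinase Gsk3b rose from 126 ± 3.38 to 139.7 ± 0.283 CPM, by 0.15 (SE 0.0495 and adjusted p = 0.0212 by edgeR). This small change was no longer called in 6 of 13 alternatives, among them the fit without NC replicate 1 (0.12, edgeR adjusted p = 0.12), without NC replicate 2 (0.14, edgeR adjusted p = 0.116), without miR-497 replicate 1 (0.15, edgeR adjusted p = 0.0517), without miR-497 replicate 2 (0.15, edgeR adjusted p = 0.0547) and with the replicate number as a block (0.15, edgeR adjusted p = 0.0662). Gsk3a and Apc did not pass, with log2 fold changes of -0.01 (SE 0.0639) and -0.06 (SE 0.0658). The 4 expressed partners of the complex gave 1 fall, 1 small rise and 2 changes within their error. With Ctnnb1, 3 of 5 tested genes were called (60%), beside 49.8% of all tested genes.

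Axin2, the negative-feedback scaffold that beta-catenin induces in many tissues, had only 4, 13 and 7 counts in the NC libraries and 0 in each miR-497 library. It was removed by the filter. Against a floor of 3 counts over the miR-497 group, its NC counts were 7.23-fold higher. That figure takes the NC counts as exact, so it is not a lower limit. Without the filter on low counts Axin2 passed the test (edgeR adjusted p = 0.00511). Adjusted p-values differed widely between that fit and the filtered one. By edgeR they were 6.45e-37 and 1.38e-07 for Dvl1, and 0.0706 and 0.0212 for Gsk3b. No other test of Axin2 is reported here. The longest 3' UTR of Axin2 holds 2 sites, each in 1 of its 2 coding transcripts with a 3' UTR (GRCm38, plus strand, site in capitals).
Axin2, chr11:108949828-108949856: cccccagtttaTGCTGCTttaaacctgga
Axin2, chr11:108950054-108950082: accccccgccaTGCTGCTctgcttgtcac
As background for such low counts, 1745 protein-coding genes that the filter removed had 5 to 24 counts over the NC libraries, and 12.6% of them were at 0 in all 3 miR-497 libraries. Of the 11 members in that range, 5 were (Axin2, Dkk1, Wnt6, Wnt8a and Wnt16). The range was chosen after their values were seen, and genes were not matched by count within it. The 2 shares are therefore not a like comparison.

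The TCF/LEF factors, which carry beta-catenin to DNA, gave 2 higher genes and none lower of 4 tested, a called share close to the 49.8% of all tested genes. Tcf7l1, usually a repressor in this family, made up 71.1% ± 1.88 of the family's level per kilobase with NC and 74.8% ± 1.41 with miR-497 (SD, n = 3). Tcf7l1 (ENSMUSG00000055799, chr6:72626378-72789254) had 28.3, 28.2 and 29.5 CPM with NC and 37.6, 44.9 and 41.6 CPM with miR-497, without overlap. It rose by 0.53 on the log2 scale (SE 0.0767 and adjusted p = 2.03e-05 by edgeR). Tcf7l2 rose from 13.0 ± 1.01 to 16.7 ± 2.45 CPM, by 0.37 (SE 0.116 and adjusted p = 0.013 by edgeR), but not without NC replicate 2 (0.32, edgeR adjusted p = 0.0586) or miR-497 replicate 3 (0.26, edgeR adjusted p = 0.0807). Tcf7 averaged 3.76 and 4.04 CPM and did not pass (0.11, SE 0.222). Lef1 (ENSMUSG00000027985, chr3:131110471-131224356), itself a common beta-catenin target, was scarce, with 17, 18 and 28 counts with NC and 25, 30 and 36 with miR-497, or 0.513, 0.493 and 0.995 CPM and 0.995, 0.944 and 1.18 CPM. The groups overlap, and its log2 fold change of 0.66 (SE 0.421) did not pass (edgeR adjusted p = 0.212), nor did the value without NC replicate 3 (1.06, edgeR adjusted p = 0.0824). A gene on the opposite strand, Gm43352, covers 13.8% of the exon bases of Lef1 and had at most 4 counts in any library.

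Calls of either direction were found with and without a site. Of the 13 tested members with a site, 3 were lower, 3 higher and 7 not called, and of the 25 without, 5 were lower, 5 higher and 15 not called. Over all tested genes with a 3' UTR, 40.95% of the 3617 with a site were lower and 18.2% higher, beside 23.5% and 28.3% of the 9242 without. The median log2 fold change was -0.08 for the 13 members with a site and -0.03 for the 25 without. These are small counts and no test was made on them.

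**Figure D4:**
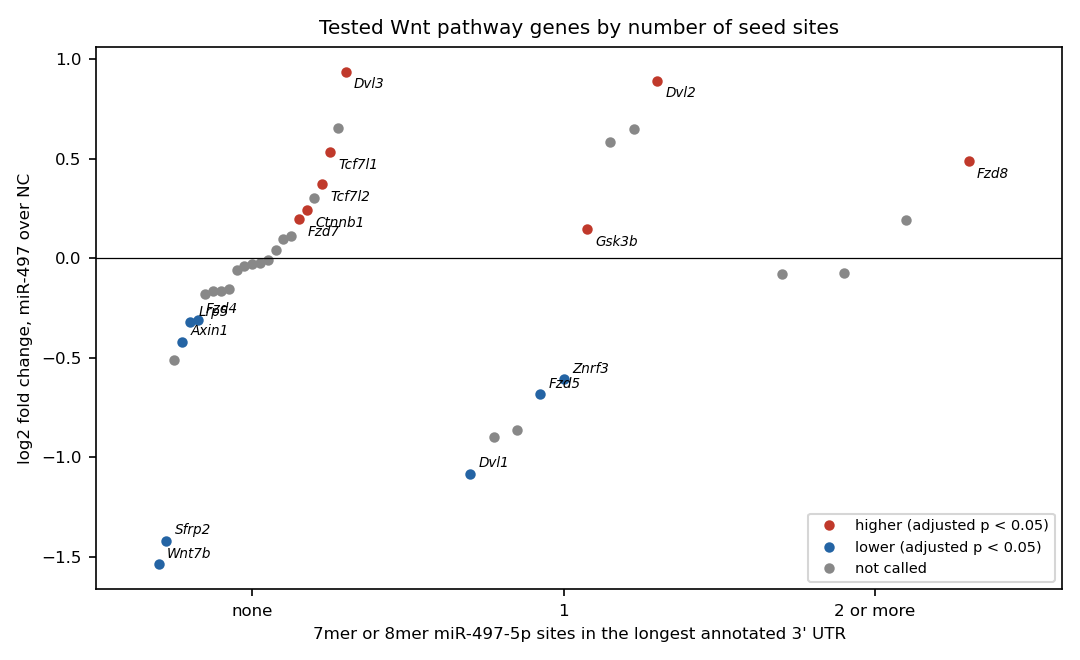
Log2 fold change (y axis, miR-497 over NC) of the 38 tested members by the number of miR-497-5p 7mer or 8mer sites in the longest annotated 3' UTR (x axis: none, 1, 2 or more; points within a column are spread by rank). Called genes are named; with 1 site, Dvl1, Fzd5 and Znrf3 lie below 0 and Dvl2 and Gsk3b above it.

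Other genes of the pathway were taken from 4 lists of 77 genes, of which 61 were tested, 19 were higher and 15 lower (55.7% of those tested, beside 49.8% of all genes). Their median log2 fold change was 0.05. Of the 17 secretion and surface partners, 3 were higher and 4 lower (63.6% of the 11 tested, beside 49.8% of all tested genes), and 6 were not tested. Wls, the carrier that takes Wnts to the cell surface, rose from 120.3 ± 1.40 to 165.5 ± 5.71 CPM, by 0.46 (SE 0.0506 and adjusted p = 1.03e-06 by edgeR; SD, n = 3). Tspan12, the tetraspanin that aids Norrin signalling at Fzd4, rose by 0.68 (SE 0.0700 and adjusted p = 4.6e-07 by edgeR), from 29.5 ± 1.67 to 47.3 ± 0.267 CPM. Adgra2, the endothelial receptor through which Wnt7 ligands act on brain vessels, fell by 0.83 (SE 0.0568 and adjusted p = 3.69e-09 by edgeR), from 147.5 ± 3.98 to 82.9 ± 4.94 CPM. Rspo2, a secreted protein that clears Znrf3 and Rnf43 from the membrane, fell by 0.79 (SE 0.247 and adjusted p = 0.0134 by edgeR), from 5.40 ± 0.0847 to 3.13 ± 1.22 CPM.

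Of the 13 further inhibitors, 9 were not tested, 1 was higher and 2 lower, so 3 of the 4 tested were called, beside 49.8% of all tested genes. Tmem131l rose from 13.6 ± 1.36 to 36.1 ± 1.91 CPM (SD, n = 3), by 1.41 on the log2 scale (SE 0.0896 and adjusted p = 1.63e-09 by edgeR), and Apcdd1, a membrane inhibitor, had -0.32 (SE 0.0678 and adjusted p = 0.000899 by edgeR). Of the 29 cytoplasmic and nuclear parts, 28 were tested, and 7 were higher and 6 lower (46.4% called, near the 49.8% of all tested genes). The largest fall among the well expressed was in Amer1, which brings Axin and Apc to the membrane, from 9.76 ± 0.613 to 3.38 ± 0.588 CPM (log2 fold change -1.54, SE 0.164, edgeR adjusted p = 7.21e-07). Bcl9, a co-activator of beta-catenin, had -0.78 (SE 0.0986). The co-repressor Tle3 and the kinase Csnk1e, which phosphorylates Dishevelled, had 0.68 (SE 0.0599) and 0.62 (SE 0.0523), with edgeR adjusted p-values of 4.69e-06 for Bcl9, 7.95e-08 for Tle3 and 4.89e-08 for Csnk1e.

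The 18 planar polarity and non-canonical genes were all tested, and 8 were higher and 3 lower (61.1% called, beside 49.8% of all tested genes, with 23.8% higher and 26% lower). Their median log2 fold change was 0.18, beside -0.02 for all tested genes. Prickle1 and Prickle2, cytoplasmic parts of the polarity complex, rose from 31.3 ± 4.39 to 64.0 ± 5.19 CPM and from 35.5 ± 2.47 to 55.6 ± 3.15 CPM (SD, n = 3), by 1.03 (SE 0.0925 and adjusted p = 9.56e-08 by edgeR) and 0.65 (SE 0.0747 and adjusted p = 1.78e-06 by edgeR). Mapk8, the stress kinase JNK1, fell by 0.58 (SE 0.0784 and adjusted p = 9.89e-06 by edgeR), and Daam1, a formin bound by Dishevelled, fell by 0.28 (SE 0.0603 and adjusted p = 0.000825 by edgeR). Of the lower genes named from the further lists, Adgra2, Apcdd1, Amer1, Bcl9, Mapk8 and Daam1 had a 7mer or 8mer site and Rspo2 had none. The named higher genes had none. Among genes not named for their change, the lower Frzb, Bcl9l, Pygo2 and Tle4 had sites. The lower Btrc, Ptk7, Lgr6 and Celsr2 had none. The higher Mapk9 and Pygo1 had sites, and the remaining higher genes of these lists had none. Over all tested genes with a 3' UTR, 40.95% of those with a site were lower and 18.2% higher. Without a site, 23.5% were lower and 28.3% higher. The part of sites in these changes was not tested.

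Of 18 widely used beta-catenin target genes, 7 of them members described above, 11 were tested, 2 were higher and 6 lower, and 7 were removed by the filter. The 8 called are 72.7% of those tested, beside 49.8% of all tested genes (23.8% higher and 26% lower). The median log2 fold change of the 11 was -0.29, beside -0.02 for all tested genes. Vegfa, the vessel growth factor, fell from 20.7 ± 1.37 to 9.11 ± 0.914 CPM (SD, n = 3), with -1.18 on the log2 scale (SE 0.107 and adjusted p = 1.03e-07 by edgeR), and Bmp4 from 50.1 ± 1.89 to 23.97 ± 2.22 CPM, with -1.06 (SE 0.0783 and adjusted p = 9.65e-09 by edgeR). Cd44, the hyaluronan receptor, went the other way, from 47.3 ± 3.13 to 94.2 ± 17.3 CPM (0.99, SE 0.0999, edgeR adjusted p = 3.71e-07). The other higher gene was Tcf7l2, and the other lower genes were Znrf3, Ccnd1, Fosl1 and Jun. On the opposite strand, Ccdc85b covers 57.2% of the exon bases of Fosl1, and LTO1 covers 23.4% of those of Ccnd1. Reads of these pairs cannot be told apart if strand was not used in counting. Vegfa had an 8mer site, and Ccnd1, Fosl1 and Znrf3 had 7mer sites, in the longest annotated 3' UTR. The lower Bmp4 and Jun and the higher Cd44 and Tcf7l2 had no 7mer or 8mer site. The part of these sites in the changes was not tested. The 7 that the filter removed, Axin2, Nkd1, Notum, Lgr5, Rnf43, Sp5 and Dkk1, had group means of at most 0.329 CPM.

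**Figure D5:**
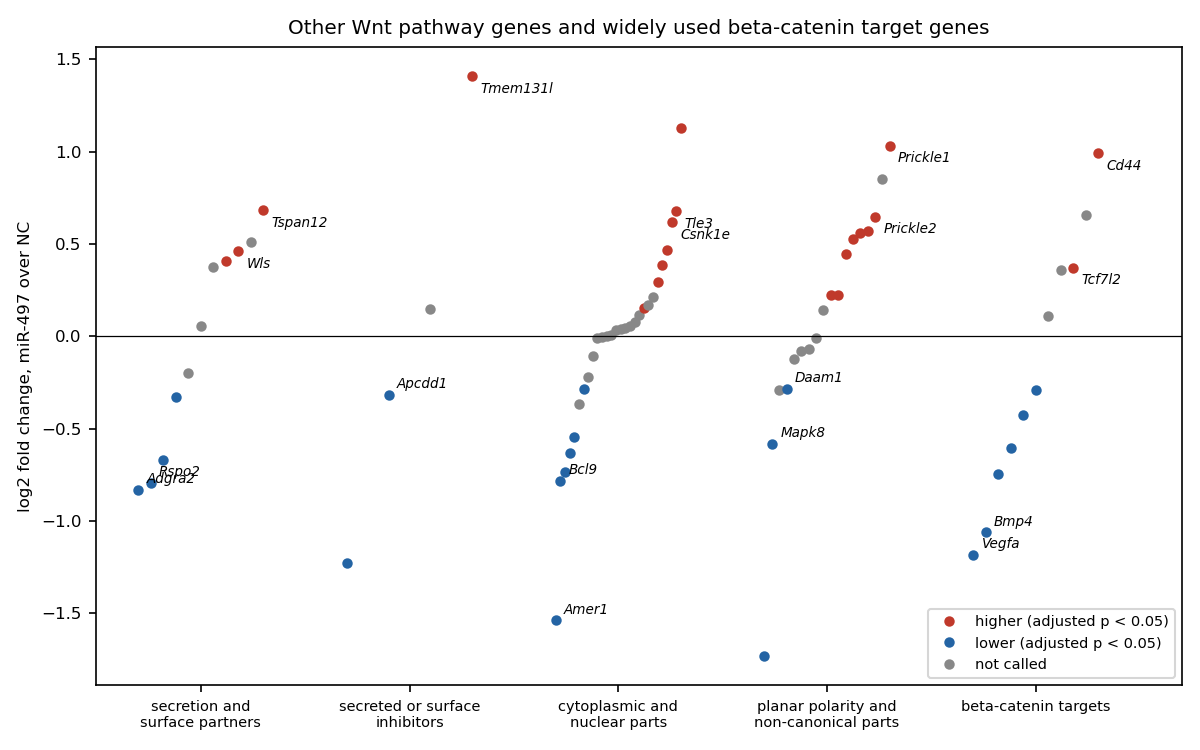
Log2 fold change (y axis, miR-497 over NC) of the tested genes of the 4 further Wnt lists and of the beta-catenin target list (x axis; points within a column are spread by rank). Named genes have the largest called changes at a mean log2 CPM of at least 2; each column holds red (higher) and blue (lower) genes.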

How the data were processed

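The data are 6 poly(A) RNA-seq libraries of ADC106 cells, 3 per group. The deposited table holds a count for each gene and library; all values are whole, library totals differ, and no scaling by the authors is seen in them. The submitters' processing notes name STAR 2.5.4b, featureCounts, Subread 1.6.1, edgeR 3.32.1 and GRCm38. The annotation release, the strand setting and the handling of multiply aligned reads are not given in the sources used here, so values of closely related genes are uncertain to that extent. Groups and replicate numbers came from the sample titles, and count columns were matched by the sample descriptions.

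Symbols, coordinates, exon lengths and 3' UTRs (transcript bases after the stop codon) came from GENCODE M21 on GRCm38, which matched 55141 of 55401 identifiers. Genes were filtered with filterByExpr (minimum count 10, minimum total 15), scaled by TMM and tested with edgeR 4.0.16 in R 4.3.3 by the quasi-likelihood F-test, 2-sided, with the group as the only term and Benjamini-Hochberg adjustment over all 14661 genes at 0.05. The standard error is the log2 fold change divided by the square root of F. CPM per kilobase is CPM over the length of all exons of a gene. A floor of 3 counts over the group was used against 0. It covers counting error in the group at 0 only, and not in the other group. The procedure was also run on simulated counts in which few genes changed, each by at least 0.5 on the log2 scale. That run does not check the scaling where many genes change, nor the smaller changes reported here.

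Members and lists were chosen with earlier results of these data known. Every member is accounted for. Values per library are given for members with an adjusted p under 0.05 and an absolute log2 fold change of at least 0.5, and for Ctnnb1, Axin2 and Lef1. From each further list the 2 largest called rises and 2 largest called falls at a mean log2 CPM of at least 2 are named. The alternatives were DESeq2 size factors, upper-quartile scaling, no filter, a mean count of at least 50, the DESeq2 1.42.0 Wald test, limma 3.58.1 voom, the replicate number as a block and each library left out; for sites, the shortest 3' UTR and 8mers only.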

Additional observations from a re-analysis of the deposited data

How the results depend on the processing

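Across the 13 alternatives, the number of higher members ranged from 6 to 10 and of lower members from 6 to 11, against 8 and 8; with 1 library left out at a time they ranged from 6 to 9 and from 6 to 10. The 4 further lists gave 15 to 22 higher and 14 to 16 lower genes (15 to 19 and 14 to 16 with a library left out), and all genes gave 3029 to 3998 and 3374 to 3995 (3029 to 3350 and 3374 to 3608 with a library left out). For 17 members, the 16 called ones and Lef1, 204 of 218 pairs of gene and alternative kept direction and side of the threshold, and none reversed. Wnt7b, Sfrp2 and Lef1 had no pair for the mean count of at least 50, which removed them. Other members that gained a call in an alternative are not among these pairs and enter only the ranges above. The 14 exceptions were in Fzd7, Tcf7l2, Wnt7b, Gsk3b and Sfrp2, among them Gsk3b without a filter (0.14, edgeR adjusted p = 0.0706). Members with a site numbered 12 of 54 with the shortest 3' UTR and 4 with 8mers only, against 19; these settings search less sequence or fewer words. Scaling moved the median of all genes from -0.02 to at most 0.03. Same-numbered libraries did not deviate together (correlations -0.119, -0.0351 and -0.133), so the numbers are not shown to pair the libraries. With the replicate block, 7 members were higher and 8 lower, 15 of the 16 called members remained and Gsk3b did not; the lists gave 18 and 15, and all genes 3177 and 3563. The 16 members removed by the filter had at most 18 counts in any library, and whether deeper libraries would show a difference in them was not tested.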
